A study of Homo sapiens with 24 samples.

Results

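The expression of 10 genes of the epithelial-mesenchymal transition (EMT) was followed in 24 RNA-seq libraries of clear cell renal cell carcinoma (ccRCC) cells. These were the transcription factor genes ZEB1, ZEB2, SNAI1, SNAI2, TWIST1 and TWIST2, the filament gene VIM, the adhesion gene EPCAM and the epithelial regulators ESRP1 and GRHL2, taken by name from the 26475 genes of each expression table. The cells were 786-M1A and OS-LM1, metastatic derivatives of the lines 786-O and OS-RC2, and both carry VHL mutations. In each line, 4 libraries came from cells with the short hairpin RNA (shRNA) shPAX8-1, 4 from cells with shPAX8-2, both directed against the renal lineage transcription factor gene PAX8, and 4 from cells with sgNTC18, read here from its name as a non-targeting guide RNA since the labels do not spell it out. The study's methods describe doxycycline-inducible shRNA vectors and lentiviral delivery, while the doxycycline time of these libraries is not given in the sources used here. The controls here thus carry another kind of construct, so PAX8 depletion and the kind of construct cannot be told apart in any comparison with sgNTC18, whereas shPAX8-1 and shPAX8-2 share the kind of construct. Whether the 4 libraries of a group came from separate cultures is not given in the labels, so the p-values measure the spread between these libraries, which may be technical.

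EMT is the loss of apical junctions and surface adhesion by epithelial cells together with the gain of a migratory, matrix-rich phenotype. ZEB1 and ZEB2 (zinc finger and homeodomain proteins) and SNAI1 and SNAI2 (zinc finger proteins, also called Snail and Slug) bind E-box motifs in epithelial promoters and recruit corepressors, TWIST1 and TWIST2 are basic helix-loop-helix factors, and VIM encodes the intermediate filament protein vimentin. GRHL2 and the splicing regulator ESRP1 maintain the epithelial state and stand in mutual repression with ZEB1. Renal tubules arise in development from mesenchyme that turns epithelial under lineage factors such as PAX8 and PAX2, and ccRCC cells commonly retain vimentin beside epithelial keratins.

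The guide strands of both shRNAs are shown because every comparison rests on them and because their seed regions could meet transcripts other than PAX8. They are written 5′ to 3′ in DNA letters with the seed (bases 2 to 8) in capitals.
shPAX8-1: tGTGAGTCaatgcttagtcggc
shPAX8-2: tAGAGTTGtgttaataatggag
On hg38 the fully matched site of shPAX8-1 lies at chr2:113241690-113241711 on the minus strand, in exon 7 of the 12 exons of PAX8 and within the coding sequence. The site of shPAX8-2 lies at chr2:113218122-113218143 on the same strand, in exon 12 and in the 3′ UTR. Among all annotated transcripts (GENCODE), each 22-base guide matched fully in PAX8 alone. A 7-base match to the seed of shPAX8-1 was present once in the 3′ UTR of SNAI1 and in that of no other of the 10 genes (6.59% of 19701 coding genes had such a match), and 1 match to the seed of shPAX8-2 was present in the 3′ UTR of ZEB1 and in no other of the 10 (10.0% of coding genes). The part of these matches in the results was not tested.

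The libraries held between 11634419 and 52059375 estimated read counts (median 20511915). Levels are given below as CPM (counts scaled to a common library size) scaled by TMM, and levels of different genes are compared as TPM, which also corrects for transcript length. Replicates of a group differed in their counts by a chi-square of 3.58 to 83.1 per gene, the most between OS-LM1 shPAX8-2 replicates 3 and 4. The 786-M1A shPAX8-1 libraries formed 2 pairs: between replicates 1 or 2 and replicates 3 or 4, the chi-square was 41.6 to 71.6 per gene, against 13.2 between replicates 1 and 2 and 3.58 between replicates 3 and 4, and results that rest on them are also given for each pair. As bulk libraries, they cannot tell apart fewer cells with a transcript and less transcript per cell. PAX8 itself was at 292, 393, 360 and 319 CPM in the 786-M1A sgNTC18 libraries, at 22.9, 21.9, 15.2 and 14.8 CPM with shPAX8-1 and at 41.4, 45.5, 42.6 and 39.99 CPM with shPAX8-2. In OS-LM1 it was at 262, 279, 245 and 254 CPM with sgNTC18, at 85.6, 78.4, 59.8 and 89.2 CPM with shPAX8-1 and at 76.2, 63.8, 97.03 and 79.9 CPM with shPAX8-2. Every shPAX8 library was thus below every sgNTC18 library of its line. Between the shRNAs, PAX8 was lower with shPAX8-1 in 786-M1A (log2 fold change −1.18 ± 0.15, SE, edgeR quasi-likelihood adjusted p = 4.0e-05), and in OS-LM1 the difference was −0.05 (95% interval −0.29 to 0.19, adjusted p = 0.80).

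Of the 10 genes, 6 had enough counts to be tested (ZEB1, ZEB2, SNAI1, SNAI2, VIM and EPCAM). The 4 zinc finger genes rose with both shRNAs in both lines against sgNTC18, by 1.70-fold (SNAI2, shPAX8-2 in 786-M1A) to 13.4-fold (SNAI2, shPAX8-1 in OS-LM1). VIM fell in OS-LM1 with both shRNAs, and in 786-M1A its difference did not pass the main test with either. In 786-M1A, 4 of the 6 tested genes passed with shPAX8-1 and 5 with shPAX8-2 (edgeR quasi-likelihood, Benjamini-Hochberg adjusted p below 0.05). Of all 14452 genes tested there, 70.6% (36.1% higher, 34.5% lower) and 62.5% (31.5% higher, 30.9% lower) passed. In OS-LM1, all 6 passed with each shRNA, where 71.4% (35.6% higher, 35.8% lower) and 68.4% (34.3% higher, 34.1% lower) of 15049 genes did. A call was thus common among all genes. EPCAM is among these 6 only against controls with 0 counts. All 8 shPAX8 libraries lay above all 4 sgNTC18 libraries for ZEB1, ZEB2, SNAI1 and SNAI2 in 786-M1A and again in OS-LM1, which was so for 22.6%, 28.8% and, in both lines at once, 12.2% of the 11849 genes with a mean of at least 1 log2 CPM. The reverse order held for 27.3% of these genes in 786-M1A and 28.1% in OS-LM1, among them VIM in each line. The comparisons of shPAX8-1 and of shPAX8-2 with sgNTC18 share their control libraries.

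**Figure D1:**
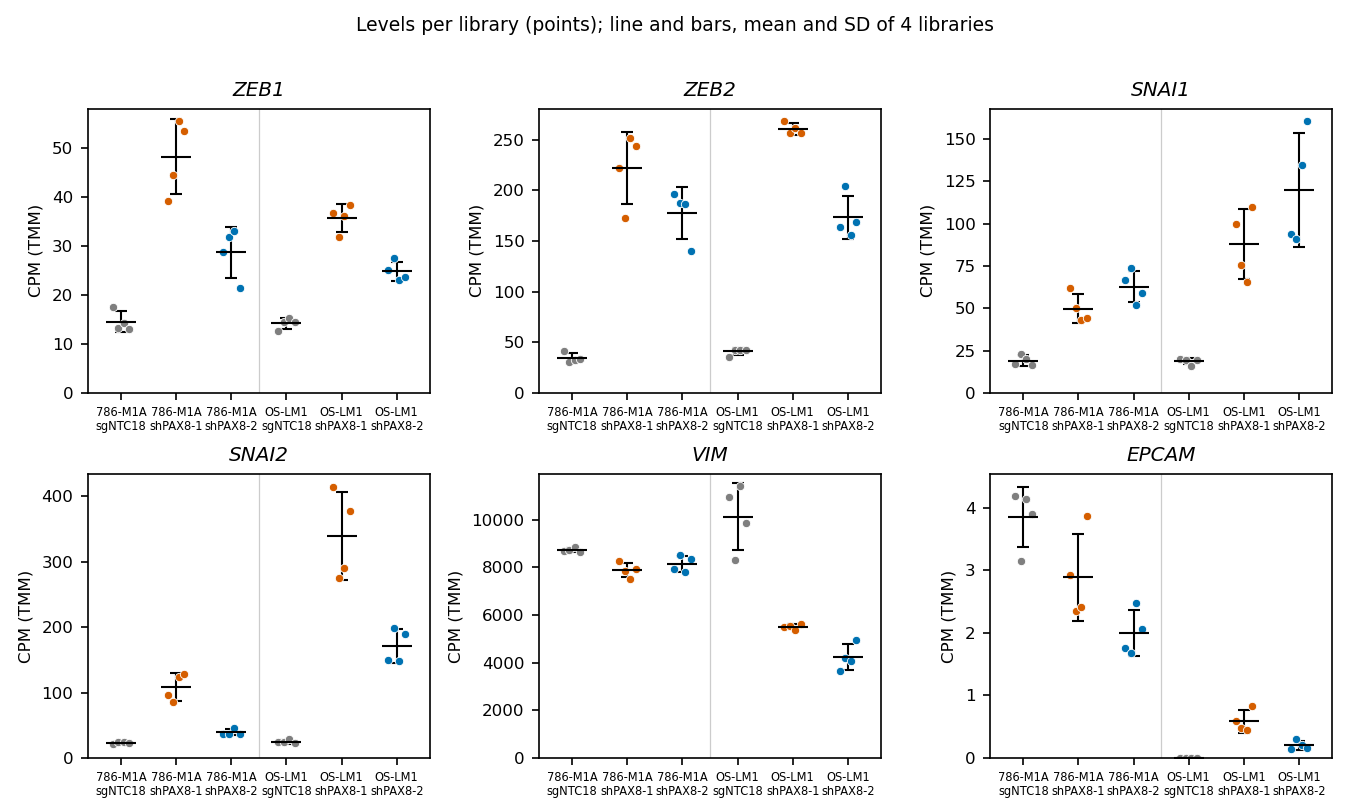
CPM (vertical axis, linear, from 0) of the 6 tested genes in each library (points) of the 6 groups (horizontal axis), with the mean and SD of 4 libraries as a line and bars. ZEB1, ZEB2, SNAI1 and SNAI2 of the shPAX8 libraries lie above all sgNTC18 libraries in both lines, VIM of OS-LM1 shPAX8 libraries lies at 3668 to 5604 CPM below the sgNTC18 libraries at 8288 to 11428 CPM, and EPCAM is at 0 in all OS-LM1 sgNTC18 libraries.

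ZEB1, on chromosome 10 (hg38, chr10:31318417-31529804), was at 17.6, 13.3, 14.2 and 13.0 CPM in the 786-M1A sgNTC18 libraries. With shPAX8-1 it was at 39.2, 44.5, 55.4 and 53.5 CPM and with shPAX8-2 at 28.7, 31.8, 33.0 and 21.4 CPM, and the 3 groups did not overlap. The log2 fold change against sgNTC18 was 1.75 ± 0.16 with shPAX8-1 (adjusted p = 1.7e-07) and 1.00 ± 0.16 with shPAX8-2 (adjusted p = 6.8e-05). In OS-LM1 the libraries stood at 12.5, 14.5, 15.2 and 14.4 CPM with sgNTC18, at 36.8, 31.7, 36.1 and 38.4 CPM with shPAX8-1 and at 25.1, 27.5, 23.1 and 23.7 CPM with shPAX8-2. Again the order was sgNTC18, shPAX8-2, shPAX8-1 with no overlap, and the log2 fold changes against sgNTC18 were 1.31 ± 0.10 (adjusted p = 1.0e-09) and 0.81 ± 0.10 (adjusted p = 9.7e-07).

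ZEB2, the other member of the family (chr2:144384081-144520119), is a repressor of the same kind. In 786-M1A it was at 41.1, 30.2, 32.3 and 33.8 CPM with sgNTC18, at 222, 172, 251 and 243 CPM with shPAX8-1 and at 196, 188, 186 and 140 CPM with shPAX8-2. The log2 fold changes against sgNTC18 were 2.71 ± 0.15 and 2.39 ± 0.15 (adjusted p = 9.4e-10 and 6.2e-09). In OS-LM1 it was at 35.8, 42.3, 42.8 and 42.5 CPM with sgNTC18, at 268, 257, 261 and 256 CPM with shPAX8-1 and at 164, 204, 156 and 169 CPM with shPAX8-2. The shRNA groups overlapped in 786-M1A and not in OS-LM1, where the log2 fold changes were 2.65 ± 0.10 and 2.09 ± 0.10 (adjusted p = 2.7e-14 and 8.6e-13). The rise of ZEB2 differed between the lines by −0.15 on the log2 scale, taken over both shRNAs (95% interval −0.44 to 0.14, adjusted p = 0.39), and that of ZEB1 by −0.28 (−0.60 to 0.04, adjusted p = 0.14). With a trend on transcript GC content taken off every library that of ZEB1 passed (−0.38, adjusted p = 0.0086, and 0.0041 with the replicate block), as it did with 786-M1A shPAX8-1 replicates 3 and 4 alone (−0.41, adjusted p = 0.022) and without 786-M1A sgNTC18 replicate 1 (−0.39, adjusted p = 0.048), and that of ZEB2 passed with the block and the GC step together (−0.25, adjusted p = 0.032).

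SNAI1 (chr20:49982980-49988886), the gene for Snail, was at 16.8, 23.0, 19.9 and 16.3 CPM in 786-M1A with sgNTC18, at 62.2, 50.02, 43.0 and 44.1 CPM with shPAX8-1 and at 66.7, 73.6, 52.0 and 58.8 CPM with shPAX8-2. It rose by 1.42 ± 0.16 and 1.75 ± 0.16 on the log2 scale (adjusted p = 1.0e-06 and 2.2e-07). In OS-LM1 it was at 19.7, 19.1, 15.9 and 19.6 CPM with sgNTC18, at 100.1, 75.7, 65.3 and 109.8 CPM with shPAX8-1 and at 93.6, 91.0, 135 and 161 CPM with shPAX8-2. SNAI1 was the only one of the 4 risen genes whose mean was lower with shPAX8-1 than under shPAX8-2 in both lines, with overlap between the shRNA groups in each. Its rise in OS-LM1, by 2.21 ± 0.19 and 2.70 ± 0.20 (adjusted p = 6.5e-08 and 9.6e-09), exceeded that in 786-M1A by 0.90 ± 0.22 over both shRNAs (adjusted p = 0.0010).

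SNAI2 (chr8:48917598-48921429), the gene for Slug, had the largest fitted log2 fold change against sgNTC18 among the 4 factor genes, with shPAX8-1 in OS-LM1. In 786-M1A it was at 21.1, 24.6, 24.7 and 23.1 CPM with sgNTC18, at 96.05, 85.8, 124 and 129 CPM with shPAX8-1 and at 37.3, 37.2, 45.7 and 36.3 CPM with shPAX8-2. The 3 groups did not overlap, and the log2 fold changes were 2.24 ± 0.14 and 0.76 ± 0.14 (adjusted p = 3.2e-09 and 2.0e-04). In OS-LM1 it was at 23.9, 23.7, 28.9 and 22.8 CPM with sgNTC18, at 415, 275, 290 and 377 CPM with shPAX8-1 and at 149, 199, 148 and 189 CPM with shPAX8-2. SNAI2 rose further in OS-LM1, by 3.75 ± 0.14 and 2.79 ± 0.14 (adjusted p = 4.0e-14 and 2.2e-12), and the difference between the lines was 1.80 ± 0.18 (adjusted p = 2.4e-09). For this difference between lines in the response to depletion, 4 of the 6 tested genes passed. These were SNAI1, SNAI2, VIM and, only through OS-LM1 controls with 0 counts, EPCAM. Of all 15665 genes tested, 58.7% passed (29.9% with a higher and 28.8% with a lower response in OS-LM1).

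**Figure D2:**
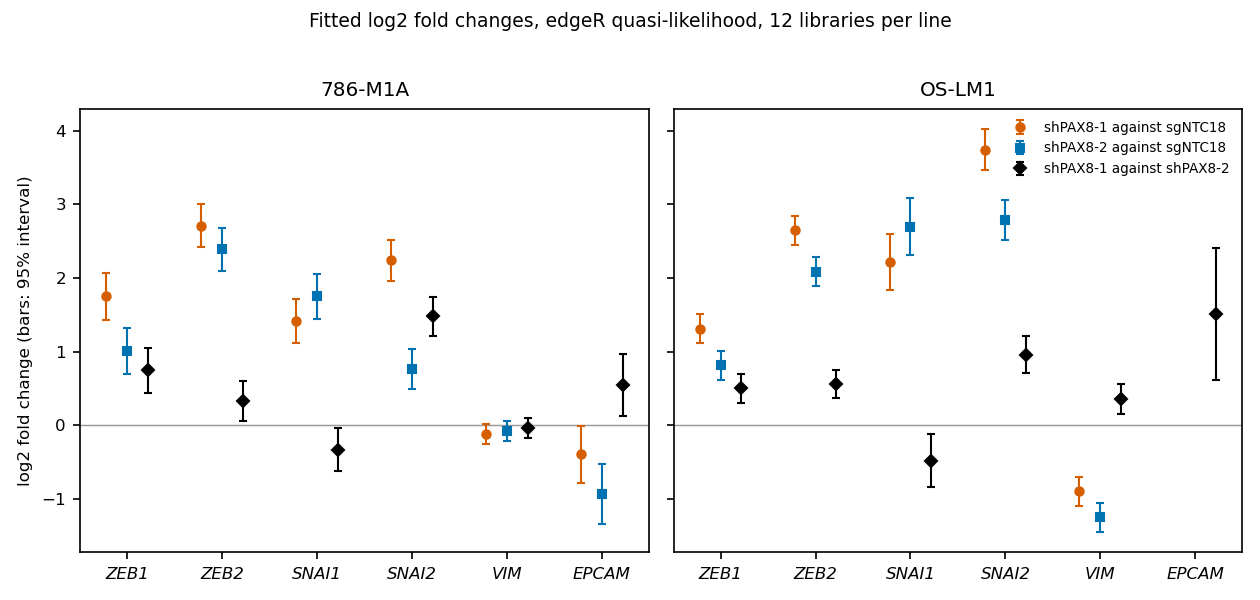
Fitted log2 fold changes (vertical axis) with 95% intervals for the 6 tested genes (horizontal axis) in 786-M1A (left) and OS-LM1 (right), with shPAX8-1 against sgNTC18 as circles, shPAX8-2 against sgNTC18 as squares and shPAX8-1 against shPAX8-2 as diamonds. SNAI2 reaches 3.75 and VIM −1.26 in OS-LM1, and the shRNA difference of SNAI1 is below 0 in both lines. EPCAM against OS-LM1 sgNTC18 is not drawn since all 4 controls had 0 counts.

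TWIST1 had 0 counts in all 24 libraries, which allows a level of up to 0.00518 CPM (3 counts over all libraries, counting error only). TWIST2, its close relative, had 11 counts in 4 libraries: 2 in 786-M1A sgNTC18 replicate 3, and 1, 4 and 4 in OS-LM1 shPAX8-1 replicates 1, 3 and 4. Neither passed the filter on low counts. With no filter TWIST2 passed in OS-LM1 as higher with shPAX8-1 than with sgNTC18 (adjusted p = 0.00997) and than with shPAX8-2 (adjusted p = 0.044), a call that rests on 9 counts in 3 libraries against 0 counts in both other groups. Thus the TWIST genes were at or near 0 in the same libraries in which 4 of the other EMT factor genes were present in every library.

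VIM (chr10:17228241-17237593) was among the most abundant transcripts. In 786-M1A it was at 8693, 8713, 8855 and 8646 CPM with sgNTC18, at 8267, 7844, 7528 and 7927 CPM with shPAX8-1 and at 7910, 8526, 7800 and 8349 CPM with shPAX8-2. All 8 shPAX8 libraries lay below the 4 sgNTC18 libraries, yet the fitted differences were small and did not pass the test (−0.12, 95% interval −0.26 to 0.01, adjusted p = 0.13 with shPAX8-1, and −0.08, −0.22 to 0.06, adjusted p = 0.34 with shPAX8-2). The difference with shPAX8-1 passed with DESeq2 (−0.12, adjusted p = 0.045) and with the GC trend removed (−0.20, adjusted p = 0.011, and 0.0051 with the block). In OS-LM1 VIM was at 10958, 8288, 11428 and 9849 CPM with sgNTC18, at 5488, 5548, 5365 and 5604 CPM with shPAX8-1 and at 3668, 4199, 4059 and 4957 CPM with shPAX8-2. The 3 groups did not overlap, and VIM fell by 0.90 and 1.26 on the log2 scale (SE 0.10 each, adjusted p = 1.8e-07 and 2.5e-09). This fall was larger than that in 786-M1A by −0.95 ± 0.11 (adjusted p = 6.3e-08). By TPM rank VIM was gene 7 or 8 of the 786-M1A sgNTC18 libraries and 8 to 12 of the OS-LM1 sgNTC18 libraries, and it stood at ranks 40 to 44 in OS-LM1 with shPAX8-2. In OS-LM1 VIM, the classical mesenchymal filament gene, thus moved opposite to the 4 factor genes.

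EPCAM (chr2:47369311-47387020), which encodes an epithelial adhesion molecule, had low counts throughout. In 786-M1A it was at 4.19, 3.15, 4.14 and 3.91 CPM with sgNTC18, at 2.93, 2.35, 2.41 and 3.87 CPM with shPAX8-1 and at 1.76, 1.67, 2.49 and 2.07 CPM with shPAX8-2. The shPAX8-2 libraries were all below the controls and those of shPAX8-1 overlapped them, with log2 fold changes of −0.94 ± 0.21 (adjusted p = 0.0011) and −0.40 (95% interval −0.79 to −0.01 before adjustment, adjusted p = 0.085). The difference with shPAX8-1 passed with the GC trend removed (−0.63, adjusted p = 0.0040, and 0.0054 with the block), with shPAX8-1 replicates 1 and 2 alone (−0.55, adjusted p = 0.043) and without its replicate 4 (−0.57, adjusted p = 0.0199). In OS-LM1 EPCAM had 0 counts in each sgNTC18 library, 12, 9, 11 and 22 counts with shPAX8-1 and 2, 5, 10 and 5 counts with shPAX8-2. Against a floor of 3 counts over the 4 control libraries (0.0216 CPM), EPCAM was at least 27.5-fold higher with shPAX8-1 and at least 9.23-fold higher with shPAX8-2, and 786-M1A sgNTC18 libraries were at least 181-fold higher than those of OS-LM1. EPCAM passed the filter on low counts in OS-LM1 through the shPAX8-1 libraries alone, at a mean of 0.58 CPM against 0.20 CPM with shPAX8-2. Its calls within OS-LM1, against sgNTC18 and between the shRNAs, therefore carry no weight.

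The other epithelial members were silent. GRHL2, a transcription factor of epithelial identity, had 0 counts in all 24 libraries, and ESRP1, an epithelial splicing regulator, had 1 count in 1 library (786-M1A shPAX8-1 replicate 4). A fall of either below its control level could not have been seen, since the control level was itself 0 in both lines.

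Per length, the factor genes differed in their balance. In sgNTC18 libraries ZEB1, ZEB2, SNAI1 and SNAI2 together made up 54.0 ± 3.41 TPM in 786-M1A and 53.0 ± 0.86 TPM in OS-LM1 (SD, n = 4), of which SNAI1 and SNAI2 held 38.4% ± 3.7 and 38.4% ± 2.2 in 786-M1A and 36.5% ± 4.1 and 39.1% ± 3.8 in OS-LM1. The levels of SNAI1 and SNAI2 did not differ beyond their spread in either set of controls, and the order below them was ZEB2, then ZEB1. With shPAX8-1 the sum was 195 ± 17.4 TPM in 786-M1A and 439.8 ± 48.4 TPM in OS-LM1, and with shPAX8-2 it was 137 ± 12.8 TPM and 301 ± 26.0 TPM. SNAI2 alone held 64.9% ± 2.0 of the sum in OS-LM1 with shPAX8-1 and 23.3% ± 3.3 in 786-M1A with shPAX8-2. The SNAI2 to SNAI1 ratio in TPM was 1.01 ± 0.11 and 1.09 ± 0.25 in the controls, 1.83 ± 0.60 and 3.16 ± 0.37 with shPAX8-1, and 0.52 ± 0.13 and 1.22 ± 0.40 with shPAX8-2 (786-M1A and OS-LM1 in each case). ZEB2 exceeded ZEB1 by a ratio of 1.75 ± 0.13 and 2.10 ± 0.08 in the controls and of 3.06 ± 0.47 to 4.84 ± 0.44 in the shPAX8 groups. All 16 shPAX8 libraries had a higher ZEB2 to ZEB1 ratio (2.56 to 5.41) than all 8 controls (1.64 to 2.19).

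**Figure D3:**
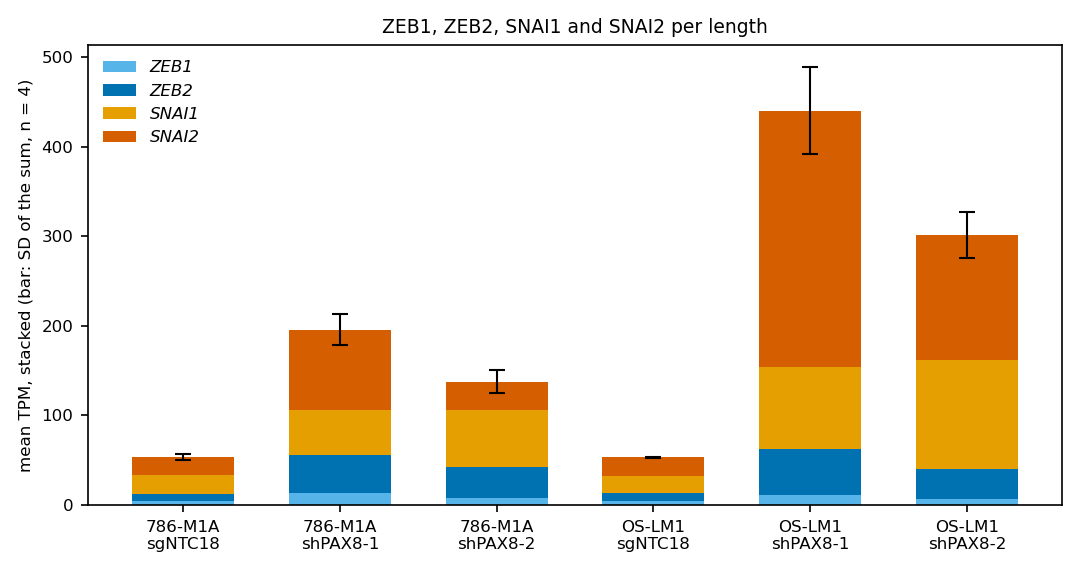
Mean TPM of ZEB1, ZEB2, SNAI1 and SNAI2 stacked (vertical axis, linear, from 0) in the 6 groups (horizontal axis), with the SD of the summed TPM of 4 libraries as a bar. The sum is 54.0 and 53.0 TPM in the controls and between 137 and 439.8 TPM in the shPAX8 groups, where SNAI2 is the largest share in 3 of the 4 and SNAI1 in 786-M1A with shPAX8-2.

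The tables also give for each gene the mean length of its transcripts, weighted by their estimated abundance, which moves when the mix of transcripts changes. For ZEB2, with 3 transcripts in the tables, this length was 8029, 7828, 8164 and 8044 bases in the 786-M1A controls and 8179, 8005, 8241 and 8051 bases in those of OS-LM1. It ranged from 8783 to 9035 bases in the 8 shPAX8 libraries of 786-M1A and from 8747 to 8949 bases in those of OS-LM1. All 16 shPAX8 libraries lay above all 8 controls, as was so for 0.706% of the 6659 genes with 2 or more transcripts and a mean of at least 1 log2 CPM (the reverse held for 1.85%). Medians differed by 826 bases for ZEB2, where the median absolute difference over these genes was 10.9 bases. ZEB1, with 6 transcripts, stayed between 5842 and 6027 bases in all 24 libraries with full overlap between groups. The longer ZEB2 mean length thus stood in the same libraries in which its count rose.

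**Figure D4:**
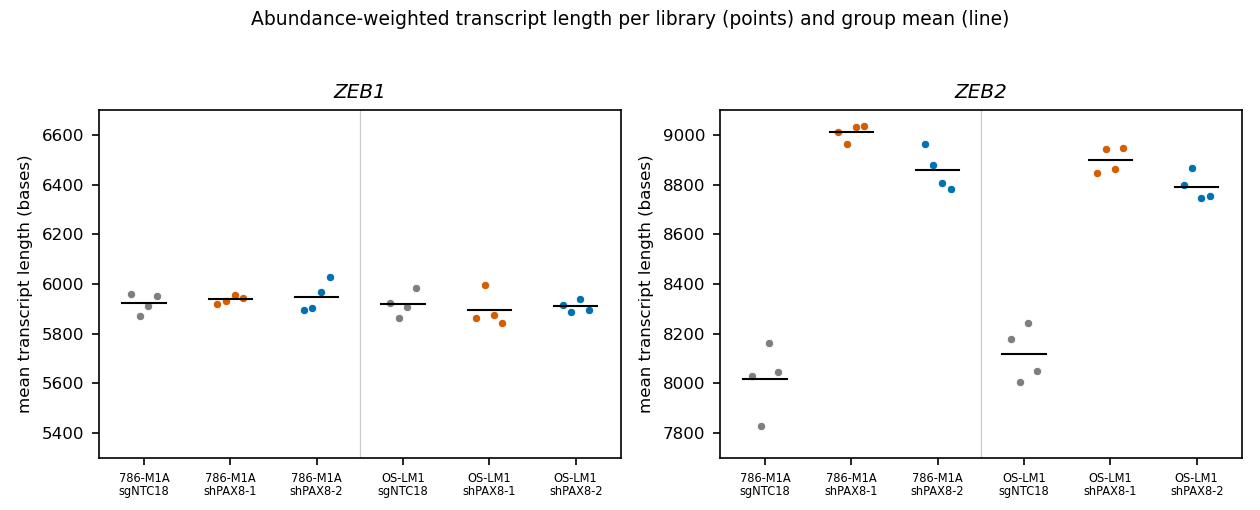
Abundance-weighted mean transcript length in bases (vertical axes, equal spans that do not start at 0) of ZEB1 (left) and ZEB2 (right) in each library (points) of the 6 groups (horizontal axis), with group means as lines. ZEB2 is at 7828 to 8241 bases in the 8 sgNTC18 libraries and at 8747 to 9035 bases in the 16 shPAX8 libraries, and ZEB1 shows no such gap.

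The difference between the shRNAs was next compared within each line, which leaves sgNTC18 aside. In 786-M1A 3 of the 6 tested genes passed, all higher with shPAX8-1, where 47.1% of all genes tested passed (24.2% higher, 22.9% lower). These were SNAI2 (1.48 ± 0.14, adjusted p = 2.9e-06), ZEB1 (0.75 ± 0.16, adjusted p = 0.0017) and EPCAM (0.55 ± 0.21, adjusted p = 0.048). In OS-LM1 5 of the 6 tested genes were higher with shPAX8-1, where 29.1% of all genes passed (12.4% higher, 16.7% lower). SNAI2 was higher by 0.96 ± 0.13 (adjusted p = 2.0e-05), ZEB2 by 0.56 ± 0.09 (adjusted p = 1.8e-04) and ZEB1 by 0.50 ± 0.10 (adjusted p = 9.9e-04). VIM was higher by 0.35 ± 0.10 (adjusted p = 0.013) and EPCAM by 1.51 ± 0.46 (adjusted p = 0.021). EPCAM was tested in OS-LM1 only through its shPAX8-1 counts, so its call there carries no weight. ZEB2 in 786-M1A did not pass (0.32, 95% interval 0.05 to 0.60 before adjustment, adjusted p = 0.070), and it did without shPAX8-1 replicate 2 (0.43, adjusted p = 0.017) and with all 24 libraries in 1 fit (0.32, adjusted p = 0.028). SNAI1 did not pass in either line (−0.33, 95% interval −0.63 to −0.04 before adjustment, adjusted p = 0.081, and −0.48, −0.84 to −0.12, adjusted p = 0.061). All 4 shPAX8-1 libraries lay above all of shPAX8-2 for SNAI2 and ZEB1 in 786-M1A, as for 20.1% of the 11849 genes (19.8% below). In OS-LM1 this held for SNAI2, ZEB1, ZEB2 and VIM, as for 11.8% (14.3% below). EPCAM had the same order in OS-LM1, and its mean of −0.25 log2 CPM put it outside the 11849 genes. SNAI2 and ZEB1 thus passed in both lines, although PAX8 itself differed between the shRNAs in 786-M1A and not beyond the spread in OS-LM1. EPCAM lost its call in 786-M1A without shPAX8-1 replicate 1 or 4 or shPAX8-2 replicate 1, 2 or 4 (adjusted p = 0.067 to 0.18) and in OS-LM1 without shPAX8-1 replicate 4 or shPAX8-2 replicate 1, 3 or 4 (0.052 to 0.096), and VIM lost its call in OS-LM1 without shPAX8-2 replicate 1 (0.052). SNAI1 gained a call in 786-M1A without shPAX8-1 replicate 1 or shPAX8-2 replicate 3 (0.013 and 0.040) and in OS-LM1 without shPAX8-1 replicate 4 or shPAX8-2 replicate 1 or 2 (0.025 to 0.036), and there also with DESeq2 (0.029) and the replicate block (0.029). With all 24 libraries and no GC step, of the shRNA differences that of VIM alone changed between the lines past the threshold (0.43 ± 0.13, adjusted p = 0.015), as did those of 27.2% of all genes (12.7% higher, 14.5% lower), and that of SNAI2 changed by −0.49 (95% interval −0.88 to −0.10 before adjustment, adjusted p = 0.067). That of SNAI2 passed without 786-M1A shPAX8-1 replicate 1 or 2, 786-M1A shPAX8-2 replicate 3, OS-LM1 shPAX8-1 replicate 1 or OS-LM1 shPAX8-2 replicate 3 (−0.54 to −0.60, adjusted p = 0.024 to 0.041) and with 786-M1A shPAX8-1 replicates 3 and 4 alone (−0.69, adjusted p = 0.0038). With the GC trend removed that of ZEB2 was 0.62 and passed (adjusted p = 8.4e-04, and 1.8e-04 with the block), against 0.27 (adjusted p = 0.25), and that of EPCAM was 1.12 (adjusted p = 0.039), as it was 1.16 without 786-M1A shPAX8-1 replicate 4 (adjusted p = 0.048). That of SNAI1 passed with the block and the GC step together (−0.44, adjusted p = 0.028).

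Transcript GC content moved with these shRNA differences. Across genes the rank correlation of the shPAX8-1 to shPAX8-2 difference with GC was −0.56 in 786-M1A and −0.20 in OS-LM1, and the longest transcripts of ZEB1 and ZEB2 are 38.4% and 39.1% GC, that of SNAI2 41.4% and that of SNAI1 58.4%. After a GC trend was taken off every library, the 786-M1A difference was 1.15 for SNAI2 (adjusted p = 2.6e-08), 0.31 for ZEB1 (adjusted p = 0.029), 0.36 for EPCAM (adjusted p = 0.15), −0.08 for ZEB2 (adjusted p = 0.59) and 0.10 for SNAI1 (adjusted p = 0.33). So the calls of SNAI2 and ZEB1 remained, at a smaller size for ZEB1, and EPCAM no longer passed. In OS-LM1 the same 5 genes passed after this step, with 0.94 for SNAI2, 0.46 for ZEB1 and 0.53 for ZEB2. With replicates 1 and 2 alone of 786-M1A shPAX8-1, the difference was 1.22 for SNAI2, 0.55 for ZEB1 and 0.42 for EPCAM (adjusted p = 1.6e-06, 0.017 and 0.22), and with replicates 3 and 4 alone it was 1.69, 0.92 and 0.67 (adjusted p = 4.5e-09, 6.0e-05 and 0.031), with ZEB2 at 0.47 (adjusted p = 0.0048) and SNAI1 at −0.54 (adjusted p = 0.0054) then also past the threshold. Against sgNTC18 the rises of the 4 factor genes in 786-M1A with shPAX8-1 passed with either pair, at 1.52 and 1.92 for ZEB1, 2.51 and 2.86 for ZEB2, 1.56 and 1.22 for SNAI1, and 1.95 and 2.45 for SNAI2.

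The lines without shPAX8 constructs were compared through sgNTC18. None of the 4 factor genes passed: the OS-LM1 to 786-M1A log2 difference was −0.04 for ZEB1 (95% interval −0.30 to 0.22), −0.03 for SNAI1 (−0.38 to 0.33), 0.09 for SNAI2 (−0.20 to 0.37) and 0.25 for ZEB2 (0.01 to 0.49 before adjustment, adjusted p = 0.078). With the GC trend removed ZEB1 was lower in OS-LM1 past the threshold (−0.28, adjusted p = 0.017, and 0.0086 with the block), and SNAI1 was at 0.27 (adjusted p = 0.085, and past the threshold at 0.036 with the block). ZEB2 passed without replicate 1 of either line (0.35 and 0.31, adjusted p = 0.020 and 0.043) and with these 8 libraries alone (0.24, adjusted p = 0.040). VIM was 0.22 higher in OS-LM1 (SE 0.09, adjusted p = 0.043) with overlap between the groups, a call lost without any 1 sgNTC18 library other than OS-LM1 replicate 2 (adjusted p = 0.052 to 0.18) and with the GC trend removed (0.081, adjusted p = 0.40). EPCAM was lower, against 0 counts, as given above. Thus 2 of the 6 tested genes passed where 63.0% of all genes did (32.0% higher and 31.0% lower in OS-LM1). Under the shRNAs (mean of both) 5 of the 6 tested genes differed between the lines, where 83.1% of all genes did (41.7% higher, 41.5% lower). SNAI1 (0.88 ± 0.12) and SNAI2 (1.89 ± 0.10) were higher in OS-LM1, and ZEB1 (−0.32 ± 0.09), VIM (−0.73 ± 0.06) and EPCAM (−2.78 ± 0.20) were lower. ZEB2 differed by 0.10 (95% interval −0.07 to 0.26, adjusted p = 0.29). With the GC trend removed ZEB2 was lower in OS-LM1 past the threshold (−0.24, adjusted p = 0.0018, and −0.23, adjusted p = 5.1e-04, with the block).

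E-box letters were searched in the annotated promoters because the ZEB and SNAI proteins recognise this motif. RefSeq promoters (GRCh38.p14) were taken from 250 bases before to 50 bases after each start. Those of 4 of the 10 genes, ZEB1, ZEB2, VIM and TWIST2, were searched for CAGGTG on both strands. EPCAM, SNAI1 and TWIST1 had no entry among the promoters used. SNAI2, ESRP1 and GRHL2 were left out of this search, so it says nothing about their promoters. The motif was found at 2 of the 7 ZEB1 starts and at no listed start of ZEB2, VIM or TWIST2, and 20.6% of all 35116 promoters held it. The ZEB1 stretches are written in the direction of transcription, with the motif in capitals.
ZEB1 chr10:31318348-31318377: ccgaggtgacagCAGGTGagggccgggtgc
ZEB1 chr10:31318966-31318991: ccccaccaCACCTGaggaaaactttt
ZEB1 chr10:31319119-31319148: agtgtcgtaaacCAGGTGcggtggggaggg
ZEB1 chr10:31319237-31319265: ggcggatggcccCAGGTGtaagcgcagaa
The first motif begins 57 bases upstream of the start at 31318417, and the others begin 242 and 85 bases upstream and 33 bases downstream of the start at 31319216. Of all promoters 0.635% held 3 or more copies. These are matches of letters and not measured binding sites.

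Other genes of the same circuit were followed as lists. Of all genes tested, 36.1% were higher and 34.5% lower with shPAX8-1 and 31.5% higher and 30.9% lower with shPAX8-2 in 786-M1A, and 35.6% and 35.8%, then 34.3% and 34.1%, in OS-LM1, so that about the same share of a list in a direction is no result about it. Among 18 other EMT transcription factor genes, 13 were tested in 786-M1A and 12 in OS-LM1. Against sgNTC18, 7 were higher and 2 lower with shPAX8-1 and 3 higher and 3 lower with shPAX8-2 in 786-M1A, and 6 higher and 6 lower, then 5 higher and 6 lower, in OS-LM1. The median log2 fold changes were 0.39, 0.15, 0.07 and −0.28, where those of all genes lay between −0.01 and 0.03. In 786-M1A FOXC1, a forkhead factor, stood above its shPAX8-2 level with shPAX8-1 (16.2 ± 4.1 against 7.47 ± 0.55 CPM, control 4.08 ± 0.42), and in OS-LM1 below it (log2 difference −0.92, adjusted p = 4.9e-06). SOX9 was 0.70 higher on the log2 scale with shPAX8-1 than with shPAX8-2 in 786-M1A, as were FOXQ1 and RUNX2 in OS-LM1 by 0.97 and 0.44. The genes of the ID inhibitors of helix-loop-helix factors were lower with shPAX8-1 than with shPAX8-2, with log2 differences of −1.14 for ID1 and −0.61 for ID2 in 786-M1A and −0.83 for ID3 in OS-LM1. Against sgNTC18, ID2 had risen in 786-M1A with both shRNAs (0.52 and 1.13), and ID1 there and ID3 in OS-LM1 had fallen with both.

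Of 13 genes for corepressors that ZEB or SNAI proteins recruit, 12 were tested in 786-M1A and 13 in OS-LM1. In 786-M1A 3 were higher and 7 lower with shPAX8-1 and 3 higher and 4 lower with shPAX8-2, at medians of −0.34 and −0.16, and in OS-LM1 3 were higher and 5 lower, then 4 higher and 5 lower, at medians of −0.11 and −0.0015. Of all genes 31.5% to 36.1% were higher and 30.9% to 35.8% lower in these comparisons, near most of these counts. CTBP1 and CTBP2, the C-terminal binding proteins that dock on ZEB1, were lower with shPAX8-1 than under the other shRNA in 786-M1A (−0.38 and −0.54), and CTBP2 also in OS-LM1 (−0.33). LIMD1 (0.53) and the demethylase gene KDM1A (0.33) were higher with shPAX8-1 in 786-M1A. SUV39H1, a histone methyltransferase gene, was at 24.7 ± 3.4 CPM in OS-LM1 controls and fell by 2.80 and 2.36 on the log2 scale with the shRNAs.

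The epithelial regulators were few. Of 17 such genes beside ESRP1 and GRHL2, 16 were in the tables and 8 were tested. With shPAX8-1 and shPAX8-2 against sgNTC18, 2 and 1 were higher and 3 and 5 lower in 786-M1A, and 2 and 2 were higher and 4 and 3 lower in OS-LM1, of 8 in each case and beside 31.5% to 36.1% higher and 30.9% to 35.8% lower among all genes. The medians were −0.12 and −0.65 in 786-M1A and −0.17 and 0.061 in OS-LM1. ELF3, an epithelial ETS factor, fell in 786-M1A from 35.2 ± 1.4 CPM (log2 fold changes −2.83 and −1.27). KLF4 rose in OS-LM1 by 2.43 and 1.63, and FOXA2 fell there (−1.52 and −2.16). FOXA1 differed between shPAX8-1 and shPAX8-2 by 1.07 in 786-M1A and by −0.59 in OS-LM1, and GRHL1, the relative of GRHL2, was 0.70 higher in 786-M1A.

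Of 40 epithelial surface and junction genes, 26 were tested in 786-M1A and 33 in OS-LM1. In 786-M1A 17 were lower and 9 higher with shPAX8-1 and 15 lower and 7 higher with shPAX8-2 (medians −0.78 and −0.54), whereas in OS-LM1 13 were lower and 11 higher, then 11 and 11 (medians −0.18 and 0.13). Of all genes 34.5% and 30.9% were lower and 36.1% and 31.5% higher in 786-M1A, and 35.8% and 34.1% lower and 35.6% and 34.3% higher in OS-LM1, so that the OS-LM1 counts were near the shares of all genes. JUP (plakoglobin) fell in 786-M1A from 4.32 ± 1.08 CPM by 3.02 and 1.16 on the log2 scale. Its mean went the other way in OS-LM1, from 59.2 CPM with sgNTC18 to 110 CPM with shPAX8-1 and 173 CPM with shPAX8-2. KRT19 and MAL2 fell in 786-M1A with both shRNAs and less so with shPAX8-1 (0.53 and 0.91 between the shRNAs). MUC1 rose there with both (0.74 and 1.81). CDH16 and CRB3 fell in OS-LM1, by 3.30 and 1.98 with shPAX8-1 and by 1.76 and 0.84 with shPAX8-2. CDH1, the E-cadherin gene and textbook target of the SNAI and ZEB repressors, was looked up after its values had been seen: it was at 0.05 to 0.42 CPM in the 12 libraries of 786-M1A, and in OS-LM1 at 11.1, 9.02, 9.82 and 9.55 CPM with sgNTC18, at 5.93, 8.62, 5.42 and 5.39 CPM with shPAX8-1 and at 10.6, 9.49, 12.6 and 10.2 CPM with shPAX8-2. CDH1 fell in OS-LM1 with shPAX8-1 (−0.67 ± 0.15, adjusted p = 4.9e-04), and its difference with shPAX8-2 was 0.13 ± 0.14 (adjusted p = 0.43). CDH2, the N-cadherin gene, looked up in the same way, rose in each of the 4 comparisons with sgNTC18, by 0.34 ± 0.12 to 0.70 ± 0.08.

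Mesenchymal structural and matrix genes mostly rose. Of 39 genes, 32 were tested in 786-M1A, where 20 rose and 7 fell with shPAX8-1 and 23 rose and 4 fell with shPAX8-2 (medians 0.72 and 1.03), and 36 in OS-LM1, where 25 rose and 7 fell, then 22 rose and 9 fell (medians 1.06 and 0.73). Of all genes, 31.5% to 36.1% were higher and 30.9% to 35.8% lower in these 4 comparisons. The list was chosen with earlier results of these data known. CTGF, a matricellular target of YAP, rose with both shRNAs in both lines, more with shPAX8-1 in 786-M1A (2.61 against 2.02) and more with shPAX8-2 in OS-LM1 (4.22 against 5.86). NT5E rose in 786-M1A by 2.18 and 1.505. In 786-M1A PDGFRB was lower with shPAX8-1 (log2 difference from shPAX8-2 −1.38). In OS-LM1 POSTN was higher with shPAX8-1 than under shPAX8-2 (9.003 ± 1.48 against 0.73 ± 0.31 CPM, control 1.67 ± 0.23), COL3A1 likewise (14.3 against 3.08 CPM), and TAGLN fell there from 12.7 ± 1.4 CPM by 3.19 and 1.17. VIM in OS-LM1 thus stood on the side of the 7 to 9 genes that fell.

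**Figure D5:**
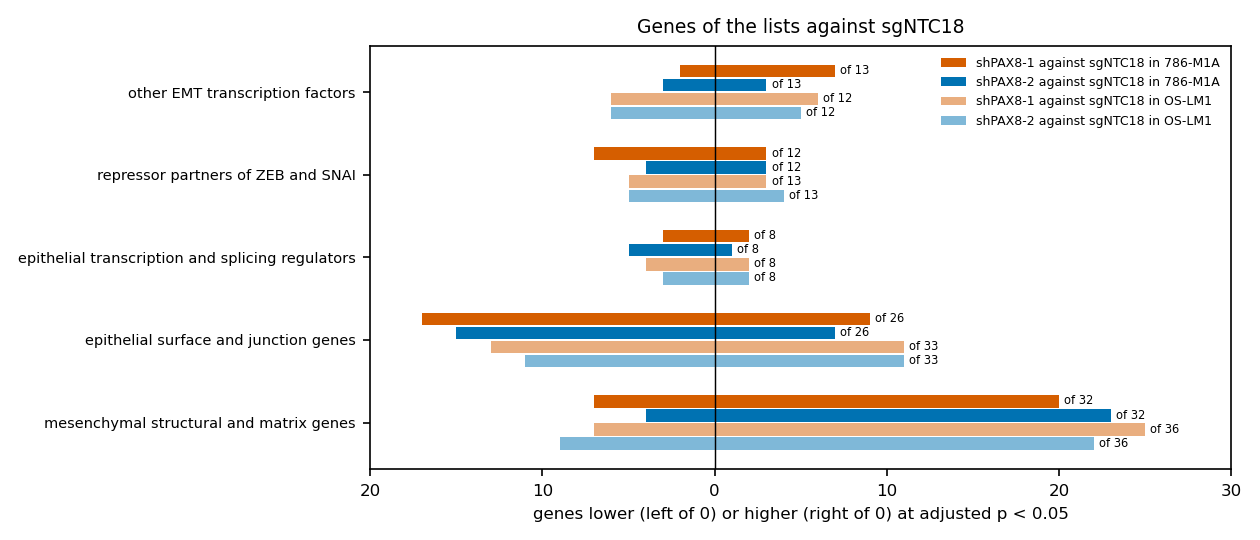
Numbers of genes of each list that were lower (left of 0) or higher (right of 0) than sgNTC18 at an adjusted p below 0.05 (horizontal axis), for each shRNA in 786-M1A (dark bars) and OS-LM1 (pale bars), with the number tested beside each bar. Mesenchymal structural and matrix genes were higher in 20 of 32 to 25 of 36 tested, and epithelial surface and junction genes were lower in 17 and 15 of 26 in 786-M1A, and in OS-LM1 lower in 13 and 11 and higher in 11 and 11 of 33.

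Antisense partners were read beside their genes, since strand-aware counting is not stated and reads of both strands cannot then be told apart. In OS-LM1 ZEB1-AS1 was 1.07 higher with shPAX8-1 than under shPAX8-2 (adjusted p = 0.0033), the same direction as ZEB1 (0.50). Against sgNTC18 it fell there by 0.94 and 2.01, from 5.24 ± 0.95 CPM, opposite to the rise of ZEB1. In 786-M1A the mean of ZEB1-AS1 was 7.95 CPM with sgNTC18, 4.37 CPM with shPAX8-1 and 5.74 CPM with shPAX8-2. VIM-AS1 was higher with shPAX8-1 than under shPAX8-2 in both lines (1.26 and 0.93), and fell against sgNTC18 with shPAX8-2 (−1.35 and −0.86). ZEB2-AS1 was at no more than 0.08 CPM in any group.

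The patterns most like each gene were listed by Pearson's r of log2 CPM over the 24 libraries, after the mean of each line was taken off, among 11848 other genes. The libraries fall into 6 groups that share line and construct, so that r mostly reflects group differences. For ZEB1 the closest were SOS1, ADGRG6 and RB1CC1 (r = 0.989 to 0.978), for ZEB2 ASAP1, CBLB and FAM149B1 (0.994 to 0.984), for SNAI1 KDM6B, MEF2D and KCTD21 (0.971 to 0.966), for SNAI2 FAM198B, UBE2H and PITPNC1 (0.980 to 0.970), and for VIM TMEM164, PIM2 and CAMK1D (0.955 to 0.941). No gene appeared beside more than 1 of the 5.

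Markers of the cell type and of possible other cells were read in the same libraries. The summed level of 11 renal epithelial markers, PAX8 included, fell from 931 to 1083 CPM with sgNTC18 to 166 to 312 CPM with the shRNAs in 786-M1A and from 1055 to 1129 CPM to 328 to 587 CPM in OS-LM1, and the defining marker EMX2 was at 0 or no more than 0.03 CPM in every group. The 7 fibroblast markers, all 7 of which are also in the mesenchymal list, summed to 535 to 727 CPM with sgNTC18, 204 to 425 CPM with shPAX8-1 and 671 to 891 CPM with shPAX8-2 in 786-M1A, nearly all PDGFRB, and to 15.0 to 20.2, 107 to 126 and 105 to 211 CPM in OS-LM1, mostly COL1A1. DCN was at no more than 0.71 CPM and PDGFRA at no more than 0.55 CPM in any group. The 6 endothelial markers summed to 0.56 to 3.72 CPM over all libraries, and of the 6 leukocyte markers CD3E was at 0 throughout while CD68 carried most of the 82.7 to 402 CPM. The part of these marker levels in the rise of the factor genes was not tested.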

How the data were processed

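Gene-level RSEM tables of 24 libraries were used, 1 per library. The authors mapped reads to hg38 with bowtie2 and RSEM, and the deposited values used here were expected counts (estimated counts per gene, not normalized, 28.0% of them not whole), TPM, and each gene's abundance-weighted transcript length. The tool versions and the annotation release are not given in the sources used here. The labels describe a KAPA stranded mRNA-seq kit and the study's methods Lexogen SENSE/CORALL kits. No column of per-sample values was left unused.

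Expected counts were rounded, filtered with filterByExpr (minimum count 10), scaled by TMM and tested with the robust quasi-likelihood test of edgeR 4.0.16 (R 4.3.3) with Benjamini-Hochberg adjustment over all genes tested. Within-line comparisons used the 12 libraries of that line, and comparisons between lines all 24. The SE was taken from the log2 fold change and its F value, and 95% intervals as 1.96 SE without adjustment. CPM used TMM over 24 libraries, and log2 CPM a prior count of 2. The scripts were tested on simulated data. Alternatives were DESeq2 1.42.0, other scaling and filters, other sets of libraries, each library left out, a replicate block, and removal of each library's trend on GC content (GENCODE transcripts, spline with 5 degrees of freedom, GC known for 93.1% of genes with a count). Replicate numbers did not pair the libraries. No libraries were duplicates.

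The 10 genes and the lists were chosen with earlier results of these data known. Named list genes were, per list and line, at most the 2 largest rises and 2 largest falls of shPAX8-1 against shPAX8-2 at an adjusted p under 0.05 and an average of at least 1 log2 CPM. A gene that this rule named is not reported here, and the list counts include it. Like patterns were the 3 genes of highest r per gene. Tables and plots were made with Python 3.11.15, pandas 2.3.3 and matplotlib 3.10.9.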

Additional observations from a re-analysis of the deposited data

Results flagged for a closer look

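Of 35 groups of 4 libraries tested for a library far from the others (Dixon's test), 4 were marked, where chance marks about 1 in 20, or 1.75 of 35. ZEB2 in 786-M1A shPAX8-2 replicate 4 was at 139.9 CPM against 186.4 to 195.9 CPM in the other 3. ZEB2 in OS-LM1 sgNTC18 replicate 1 was at 35.8 CPM against 42.3 to 42.8 CPM. SNAI1 in OS-LM1 sgNTC18 replicate 3 was at 15.9 CPM against 19.1 to 19.7 CPM, and SNAI2 in 786-M1A shPAX8-2 replicate 3 was at 45.7 CPM against 36.3 to 37.3 CPM.

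The response to the shPAX8 constructs against sgNTC18 differed between OS-LM1 and 786-M1A by 1.80 for SNAI2, 0.90 for SNAI1 and −0.95 for VIM on the log2 scale (edgeR interaction term). The same term for EPCAM (adjusted p = 4.8e-09) is fixed by the OS-LM1 controls, with 0 counts in all 4 libraries, and carries no weight. The difference between shPAX8-1 and shPAX8-2 changed between the lines for VIM by 0.43 (adjusted p = 0.015), a call lost with replicates 1 and 2 alone of 786-M1A shPAX8-1 (0.40, adjusted p = 0.065).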

How the results depend on the processing

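The rises of ZEB1, ZEB2, SNAI1 and SNAI2 against sgNTC18 passed under every alternative run, as did the fall of VIM in OS-LM1. Over all alternatives, 1059 values of single genes kept their direction and side of the threshold, 40 gained a call, 28 lost one and 19 changed sign. ZEB1 in OS-LM1 with shPAX8-2 was 0.47 with the GC trend removed, against 0.81. Across genes the rank correlation of the difference from sgNTC18 with GC was −0.36 with shPAX8-1 and −0.099 with shPAX8-2 in 786-M1A. In OS-LM1 it was −0.32 and −0.28. With the trend removed, the rises with shPAX8-1 in 786-M1A were 1.23 for ZEB1, 2.23 for ZEB2, 2.03 for SNAI1 and 1.83 for SNAI2. In the main fit they were 1.75, 2.71, 1.42 and 2.24, so their sizes and order depended on this step.

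The number of the 10 genes called for shPAX8-1 against shPAX8-2 in 786-M1A was 3, and 5 with shPAX8-1 replicates 3 and 4 alone. For the lines in sgNTC18 it was 2, and 1 with no filter on low counts, 1 with the replicate block and 1 to 2 with a library left out. For the change of the shRNA difference between lines it was 1, and 3 with the GC trend removed (with or without the block), 0 with shPAX8-1 replicates 1 and 2 alone, 2 with replicates 3 and 4 alone and 1 to 2 with a library left out. The cause was not tested.

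Signs changed mostly with the GC trend removed. For shPAX8-1 against shPAX8-2 in 786-M1A, ZEB2 was then −0.082 (−0.080 with the block) and SNAI1 0.10 (0.10 with the block). Between lines in sgNTC18, SNAI1 was 0.27 (0.27 with the block) and SNAI2 −0.14 (−0.13), and in shPAX8 ZEB2 was −0.24 (−0.23). For the change of the shRNA difference ZEB1 was 0.15 (0.14), and SNAI1 was 0.091 with replicates 3 and 4 alone, and −0.25 to 0.052 with a library left out, above 0 without 786-M1A shPAX8-1 replicate 1 (0.0014) or OS-LM1 shPAX8-2 replicate 4. Between lines in sgNTC18, ZEB1 was −0.089 to 0.067 with a library left out, above 0 without replicate 1 of 786-M1A or of OS-LM1 (0.018), and SNAI1 was −0.094 to 0.074, above 0 without 786-M1A replicate 2 or OS-LM1 replicate 3 (0.042).

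Libraries with the same replicate number did not deviate together (mean r −0.0028 over 24 pairs, of which 8 were over 0.1). With the replicate block, SNAI1 passed for shPAX8-1 against shPAX8-2 in OS-LM1 (−0.49, adjusted p = 0.028) and EPCAM did not (1.48, adjusted p = 0.058).

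EPCAM rests on 0 to 128 counts a library, so its differences between shRNAs are the least firm, and its call in OS-LM1 carries no weight. The VIM level in 786-M1A sgNTC18 was 8599 CPM with DESeq2's size factors, against 8727.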
